A study of Mus musculus with 3008 samples.

Results

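Stress-high colon Tregs are the colon lamina propria cells in this series that carried many transcripts of 4 stress genes. Tregs are Foxp3+ regulatory CD4+ T cells, which restrain immune responses, and those of the colon keep inflammation against gut microbes in check. Members were chosen by their own counts of Fosb, Hspa1a, Hspa1b and Atf3: a cell was taken as stress-high when the UMIs (unique molecular identifiers, each marking 1 captured transcript) of these genes added up to 5 or more, among cells with at least 1000 UMIs. The rule took 70 of 610 such cells of the first colon library (colon 1) and 15.3% of the 1744 cells of the second (colon 2), together 14.3% of 2354 colon cells in a series of 3008 cells. They were set against the colon cells with 0 UMIs of all 4 genes (zero cells), which made 65.2% of the cells of colon 1 and 59.2% of those of colon 2.

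The cells came from male B6 Foxp3-Ires-Gfp mice aged 7 months, whose Foxp3 gene carries a GFP reporter, and were sorted live as TCRb+ CD4+ GFP+ cells. All 3 libraries, 1 of spleen and 2 of colon lamina propria, share this strain, sex, age and gate, and no treatment is given. The transcripts were counted by inDrops, a droplet method that primes polyadenylated RNA with barcoded oligo-dT. Colon tissue was digested with collagenase and dispase while spleen was taken apart mechanically, so that tissue and handling cannot be told apart in any comparison between them. The labels name no animal, and the title and the sample type of colon 2 disagree on its replicate number, so each library counts as 1 sample, values are given per library with no replicate error, and no p-value is given. Intervals are 95% intervals of counting error only.

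The 4 genes belong to a pair of rapid responses. Fosb is a subunit of AP-1, a transcription factor made of Fos and Jun family proteins that is switched on within minutes by receptor signals or injury, and Atf3 is a related factor induced by many kinds of stress. Hspa1a and Hspa1b encode the inducible Hsp70 chaperone, which holds damaged proteins in solution and is under the control of heat-shock factor. In T cells the AP-1 genes also follow signals through the antigen receptor.

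Promoters are printed because the rule genes differ in the letters that each of these responses is known to use. The 250 bases upstream of the transcription start are given 5′ to 3′ from RefSeq (GRCm38.p6). Capitals mark GAANNTTC or TTCNNGAA, an inverted pair of heat-shock units, in the chaperone genes, and TGACG, the half-site of the cyclic AMP response element, in the Fos genes. Hspa1a (chr17:34972157-34972406) and Hspa1b (chr17:34959239-34959488) lie on the minus strand, Hspb1 (chr5:135887669-135887918) on the plus strand, Fosb (chr7:19310046-19310295) on the minus strand and Fos (chr12:85473640-85473889) on the plus strand.
Hspa1a: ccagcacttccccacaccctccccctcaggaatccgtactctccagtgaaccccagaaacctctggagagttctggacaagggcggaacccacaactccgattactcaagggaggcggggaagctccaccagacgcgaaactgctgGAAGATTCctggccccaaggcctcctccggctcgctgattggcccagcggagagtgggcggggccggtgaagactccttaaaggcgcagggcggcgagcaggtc
Hspa1b: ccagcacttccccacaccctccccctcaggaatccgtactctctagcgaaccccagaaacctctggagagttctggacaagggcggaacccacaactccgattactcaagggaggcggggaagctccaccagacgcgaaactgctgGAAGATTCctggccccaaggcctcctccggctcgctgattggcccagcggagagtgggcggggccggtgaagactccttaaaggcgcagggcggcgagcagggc
Hspb1: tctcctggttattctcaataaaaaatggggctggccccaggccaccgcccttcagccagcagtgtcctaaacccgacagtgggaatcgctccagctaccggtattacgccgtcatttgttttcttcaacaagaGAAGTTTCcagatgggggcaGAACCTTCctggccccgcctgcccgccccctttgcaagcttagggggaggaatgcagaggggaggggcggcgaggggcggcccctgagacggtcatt
Fosb: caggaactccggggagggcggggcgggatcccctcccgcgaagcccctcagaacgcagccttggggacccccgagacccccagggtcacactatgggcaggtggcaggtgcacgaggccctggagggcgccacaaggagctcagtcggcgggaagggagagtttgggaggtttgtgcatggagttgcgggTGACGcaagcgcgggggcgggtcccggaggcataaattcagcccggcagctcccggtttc
Fos: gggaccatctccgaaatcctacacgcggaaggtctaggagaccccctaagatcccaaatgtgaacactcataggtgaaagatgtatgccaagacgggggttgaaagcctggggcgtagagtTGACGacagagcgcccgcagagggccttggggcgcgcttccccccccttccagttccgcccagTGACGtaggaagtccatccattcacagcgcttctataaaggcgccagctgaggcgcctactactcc
The promoters of Hspa1a and Hspa1b were identical at 98.8% of 250 positions, and both held the heat-shock pair at the same place, ending 97 bases upstream. Reads of these near-identical neighbours could be split either way by the counting, so their separate values are uncertain. Counted per gene, with a match in any of its promoters, the heat-shock pair stood in 14.5% of all 27025 genes with a promoter of that length, and TGACG (or CGTCA on the other strand) in 19.8%. Of the 16 genes of a list of heat-shock proteins and cochaperones with enough UMIs (at least 50 in each library), 12 had a promoter in the table and 7 of them held the heat-shock pair. For the 20 AP-1 and immediate early genes with enough UMIs, 18 had a promoter, 2 held the heat-shock pair and 11 held TGACG. The half-site was also found in 9 of the 12 heat-shock promoters, and TGANTCA, the AP-1 site itself, in 2 of the 18 and 1 of the 12, beside 7.82% of all genes. These matches describe letters and not binding.

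Stress-high cells made up 11.5% of the cells of colon 1 (9.06 to 14.3) and 15.3% of those of colon 2 (13.7 to 17.1). In the spleen library 3 cells met the same rule, a share of 0.489% (0.101 to 1.42). The cut falls in a continuous range: 22 and 49 cells held 4 UMIs of the 4 genes, just outside the rule, and 5 and 39 cells held 5, just inside it. The rule genes themselves chose the cells, so their values are only a description. Fosb had a UMI in 77.1% of members in colon 1 and 71.5% in colon 2, Hspa1b in 64.3% and 65.2%, Hspa1a in 28.6% and 31.5%, and Atf3 in 5.71% and 15.4%.

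The median stress-high cell held 1778 UMIs in colon 1 and 2082 in colon 2, and the median zero cell 1790 and 2028. Cells above 5000 UMIs made up 1.43% of the stress-high and 2.76% of the zero cells of colon 1, and 3.75% and 1.26% in colon 2. Without them 41 genes were called higher and 30 lower by the rule given below, where all members gave 36 and 25. Mapped reads per UMI were 52.5 and 50.7 in colon 1 and 21.24 and 21.02 in colon 2, and ribosomal protein genes took 16.6% and 17.3% of UMIs in colon 1 and 15.98% and 16.06% in colon 2, stress-high cells first. Few barcodes recurred between libraries (9 between the colon libraries), and 1 stress-high cell carried one.

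The members expressed T cell and Treg genes. Foxp3, the factor that defines Tregs, stood at 301.5 counts per 1000000 UMIs (CPM) in colon 1 and 266.3 CPM in colon 2, Cd4 at 757.5 and 826.5 CPM, and Ctla4, an inhibitory receptor of Tregs, at 3000.8 and 2273.3 CPM. Cd8a, a marker of cytotoxic T cells, had 0 UMIs in members and zero cells alike, and a count of 0 cannot show that a transcript is absent. Klf6, given as a marker of these cells but not used to choose them, was at 1375.3 and 1446.8 CPM against 520.8 and 579.6 CPM in zero cells. Among 9 lists of other cell types, the macrophage list had 13 of its 14 genes at 0 in the stress-high cells of colon 1 and 9 of 14 in colon 2, with a summed level of 213.3 and 237.1 CPM against 259.1 and 239.1 CPM in zero cells. Summed B cell genes were at 14.7 and 97.4 CPM against 74.4 and 102.2 CPM, and epithelial genes at 29.4 and 68.2 CPM against 44.6 and 52.8 CPM. No stress-high cell of colon 1 and 3 of colon 2 held 2 or more B cell markers.

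Across the transcriptome the members differed from zero cells in a short list of genes. A gene is called higher or lower here when its CPM differed by at least 1.5-fold in the same direction in both libraries, among the 1609 genes at 100 CPM or more in either kind of cell in both libraries, with the 4 rule genes left out of the genes and the totals. By this rule 36 genes were higher (2.24% of those tested) and 25 lower (1.55%). The median log2 ratio of the genes tested was -0.02 in each library. At 2-fold, 14 genes were higher and 4 lower. With the 50 UMI filter used for gene lists below, 42 of 2947 genes were higher (1.43%) and 82 lower (2.78%), and their median log2 ratios were -0.08 and -0.04. These shares stand beside each list count of all members below, and short lists cannot set a count of 0 or 1 apart from them.

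**Figure D1:**
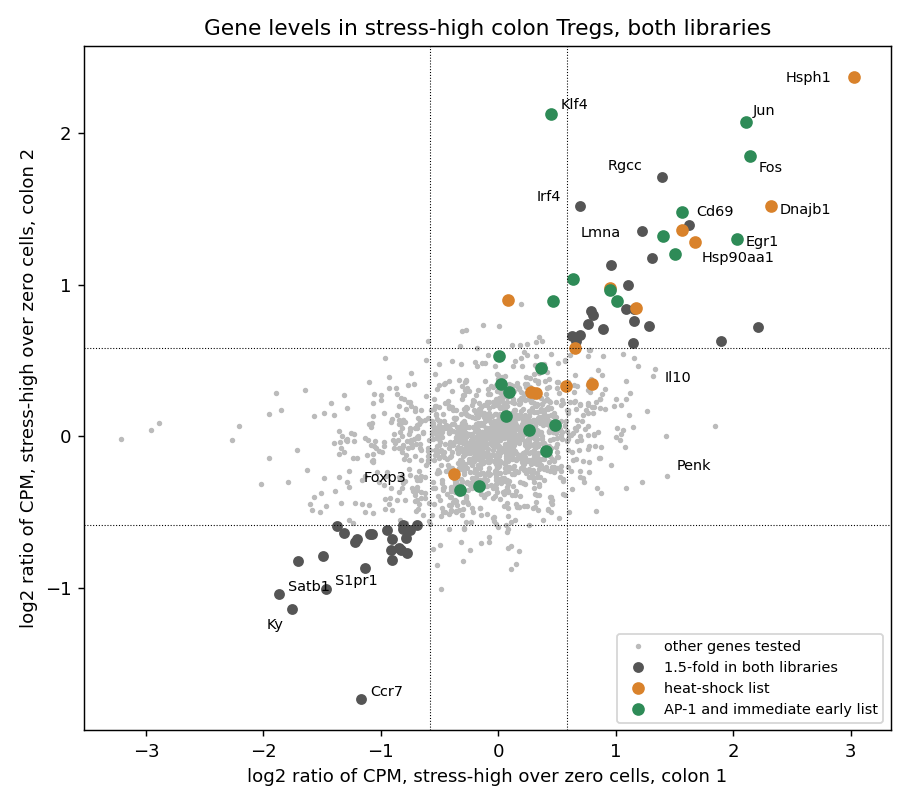
Each point is 1 gene tested; the axes give the log2 ratio of its CPM in stress-high over zero cells in colon 1 (horizontal) and colon 2 (vertical), and dotted lines mark 1.5-fold. Hsph1, Jun, Fos and Dnajb1 lie farthest to the upper right and Ccr7, Satb1 and Ky to the lower left, while Il10 and Penk are high in colon 1 without reaching 1.5-fold in colon 2.

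Heat-shock genes outside the rule followed Hspa1a and Hspa1b. Of 16 measured genes of the list, 6 were higher and 0 lower, beside 1.43% of all measured genes that were higher, with a median log2 ratio of 0.61 in colon 1 and 0.46 in colon 2. Hsph1, an Hsp110 partner that recharges Hsp70, showed the largest ratio of all named genes (chr5:149614287-149636376 in mm10, minus strand). It was at 242.7 CPM in stress-high and 29.8 CPM in zero cells of colon 1, and at 209.5 and 40.5 CPM in colon 2, log2 ratios of 3.03 (2.23 to 3.85) and 2.37 (1.97 to 2.77). The stress-high level lay above the zero level in both libraries with no overlap of the intervals.

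The Hsp70 cochaperone Dnajb1 stood at 625.2 against 125.2 CPM in colon 1 and 360.5 against 125.95 CPM in colon 2, with log2 ratios of 2.32 and 1.52. Hsp90aa1, the inducible Hsp90, was at 1537.2 against 482.3 CPM in colon 1 and 1180.5 against 486.2 CPM in colon 2 (log2 ratios 1.67 and 1.28). The zero cells of both libraries lay close together for each of these genes, and the stress-high cells of colon 1 lay above those of colon 2. Dnaja1, another cochaperone, had log2 ratios of 0.95 and 0.98, and Hspa8, the constitutive Hsc70, 1.17 and 0.85. Hspb1, a small heat-shock protein, had 1.57 and 1.36, but 18 of its 31 UMIs in colon 1 came from 1 cell, and without the member cell with most UMIs its log2 ratio there was 0.34.

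AP-1 and immediate early genes formed the other large group, with 8 of 20 measured genes higher and 0 lower and median log2 ratios of 0.46 and 0.71. Among all measured genes 1.43% were higher and 2.78% lower. Jun, the main partner of Fos proteins, stood at 470.7 against 109.1 CPM in colon 1 and 404.3 against 96.01 CPM in colon 2, log2 ratios of 2.11 (1.62 to 2.59) and 2.07 (1.81 to 2.34). Fos was at 617.8 against 140.1 CPM in colon 1 and 444.9 against 123.3 CPM in colon 2, with log2 ratios of 2.14 and 1.85. Both genes were several times higher in the members of each library.

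Zfp36, which destabilises cytokine mRNAs, had log2 ratios of 1.57 and 1.48, and Csrnp1, a nuclear protein of the immediate early class, 1.51 and 1.20. Klf6 had 1.40 and 1.32, Nr4a1, an orphan nuclear receptor induced by antigen receptor signals, 0.96 and 0.97, and Jund 1.01 and 0.89. Egr1, an early growth response factor, had 2.03 and 1.30, on 20 UMIs in the members of colon 1, and was below 1.5-fold in colon 1 after each cell was thinned to 1000 UMIs. The phosphatases Dusp1 and Dusp14, which switch off MAP kinases, were higher too, Dusp1 by log2 0.64 and 1.04 and Dusp14 by 1.28 and 0.73, but without the member cell with most UMIs Dusp1 was at 0.46 in colon 1 and Dusp14 at 0.43 in colon 2. Junb, already at 1909.5 and 2244.7 CPM in zero cells, had 0.48 and 0.08 and was not called. Klf4, chosen after its values were seen, was at 132.4 against 96.7 CPM in colon 1 and 334.5 against 76.6 CPM in colon 2, so that only colon 2 passed 1.5-fold.

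Of 13 measured endoplasmic reticulum stress genes 0 were higher and 2 lower. Dnajb9, a luminal cochaperone, had log2 ratios of -2.64 and -0.72. Sel1l, part of the degradation machinery, had 0 UMIs in the members of colon 1. Its log2 ratio there was -1.57 with the 0 set to a floor of 3 counts (upper limit of the interval -1.23), and -0.61 in colon 2. Dnajb9 rested on 2 UMIs in the members of colon 1. Of 8 oxidative stress genes and 12 genes of damage response, survival and death, 0 were higher or lower, and lists of this size are too short to set a count of 0 apart from the 1.43% higher and 2.78% lower of all measured genes. Cdkn1a, the cell cycle inhibitor p21, was at 301.5 against 262.9 CPM in colon 1 and 565.1 against 308.3 CPM in colon 2, past 1.5-fold only in colon 2.

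Of 18 measured genes of activated effector Tregs, Cd69 and Irf4 were higher and 0 were lower, with list medians of -0.02 and -0.05. The shares among all measured genes were 1.43% higher and 2.78% lower. Cd69, a membrane protein that holds activated lymphocytes in tissue (chr6:129267325-129275436, minus strand), stood at 1095.9 against 355.9 CPM in colon 1 and 714.5 against 271.7 CPM in colon 2, log2 ratios of 1.62 (1.33 to 1.91) and 1.39 (1.21 to 1.57). After thinning to 1000 UMIs, 38.6% and 36.3% of members held a Cd69 UMI, against 19.8% and 17.1% of zero cells and 11.3% of spleen cells. Irf4, a transcription factor of effector Tregs, was at 220.6 against 136.4 CPM in colon 1 and 388.1 against 135.6 CPM in colon 2 (log2 ratios 0.69 and 1.52), and its ratio in colon 1 was 0.33 without the member cell with most UMIs. Irf4 fell short of 1.5-fold with members taken at 8 or more UMIs and against all other colon cells. In colon 1 it was at 468.5 CPM in cells with 2 to 4 UMIs of the 4 genes and at 153.9 CPM in cells with 10 or more, while in colon 2 it was at 299.1 and 430.5 CPM.

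Il10, the suppressive cytokine of colon Tregs (chr1:131019845-131024974, plus strand), was above the zero cells in both libraries but passed 1.5-fold in 1 of them. It stood at 2794.8 against 1118.4 CPM in colon 1 and 1778.1 against 1351.1 CPM in colon 2, log2 ratios of 1.32 (1.14 to 1.5) and 0.40 (0.30 to 0.50). The cell with most Il10 held 43 of its UMIs in the members of colon 1, and the ratio without it was 1.17. After thinning, 67.1% of members and 47.5% of zero cells held an Il10 UMI in colon 1, and 51.3% and 47.6% in colon 2, beside 1.47% in spleen. Read the other way, 15.4% of Il10+ cells and 7.57% of the others were stress-high in colon 1, and 15.99% and 14.7% in colon 2.

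Of 11 measured genes of a list of suppressive and repair effectors, Il10 included, 0 were higher or lower, with medians of 0.25 and -0.06. This list is too short to set a count of 0 apart from the 1.43% higher and 2.78% lower of all measured genes. Gzmb, the protease granzyme B, was at 2390.3 against 2746.4 CPM in colon 1 and 2489.3 against 2630.1 CPM in colon 2. Areg, the repair factor amphiregulin, was at 286.8 against 162.4 CPM in colon 1 and 146.1 against 152.4 CPM in colon 2, and 11 of its 39 UMIs in the members of colon 1 lay in 1 cell. Fgl2, a secreted suppressor, had log2 ratios of 0.42 and 0.13, the inhibitory receptor Lag3 -0.15 and -0.52, and Ctla4 0.20 and 0.08.

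Costimulatory receptors lay near the level of zero cells. Icos had log2 ratios of -0.24 and -0.31, Tnfrsf4 (OX40) 0.04 and -0.37, and Tnfrsf9 (4-1BB) 0.01 and -0.28. Of the 6 measured genes of the GATA3 and ST2 type of tissue Treg, 0 were higher or lower, with Gata3, its lineage factor, at 0.46 and 0.13 and Il1rl1, the receptor for interleukin 33, at 0.43 and 0.18. Cells with a UMI of either gene were stress-high in 12.5% of cases in colon 1 and 16.7% in colon 2, where 14.7% of the others were, and the intervals overlapped in both libraries. Maf, a transcription factor of effector T cells, had log2 ratios of -0.70 and -0.29.

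Of 11 measured Treg identity genes 0 were called, with medians of -0.30 and -0.27. The list is too short to set this 0 apart from the 1.43% higher and 2.78% lower of all measured genes. Foxp3 had log2 ratios of -0.62 (-1.12 to -0.15) and -0.27 (-0.52 to -0.02), Il2ra, the high-affinity interleukin 2 receptor, -0.30 and -0.09, and Ikzf2 (Helios) -0.02 and -0.24. Il2rb had -0.70 and -0.27, Lrrc32 -0.52 and -0.85, and Izumo1r -0.47 and -0.34. Foxp3 and Il2rb passed 1.5-fold lower only in colon 1, and Lrrc32 only in colon 2. The largest ratios of the list were 0.20 in colon 1 and 0.08 in colon 2. Of 16 NF-kB genes, 0 were higher and 1 lower (Nfkbie), beside the same shares of all measured genes. Nfkbia and Tnfaip3, inhibitors that NF-kB induces to limit itself, were above zero cells in both libraries without passing 1.5-fold in both, at 0.57 and 0.50 for Nfkbia and 0.90 and 0.53 for Tnfaip3. Nr4a1 was the only one of 9 measured cyclic AMP response genes that was higher, while Crem had -0.22 and -0.19.

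**Figure D2:**
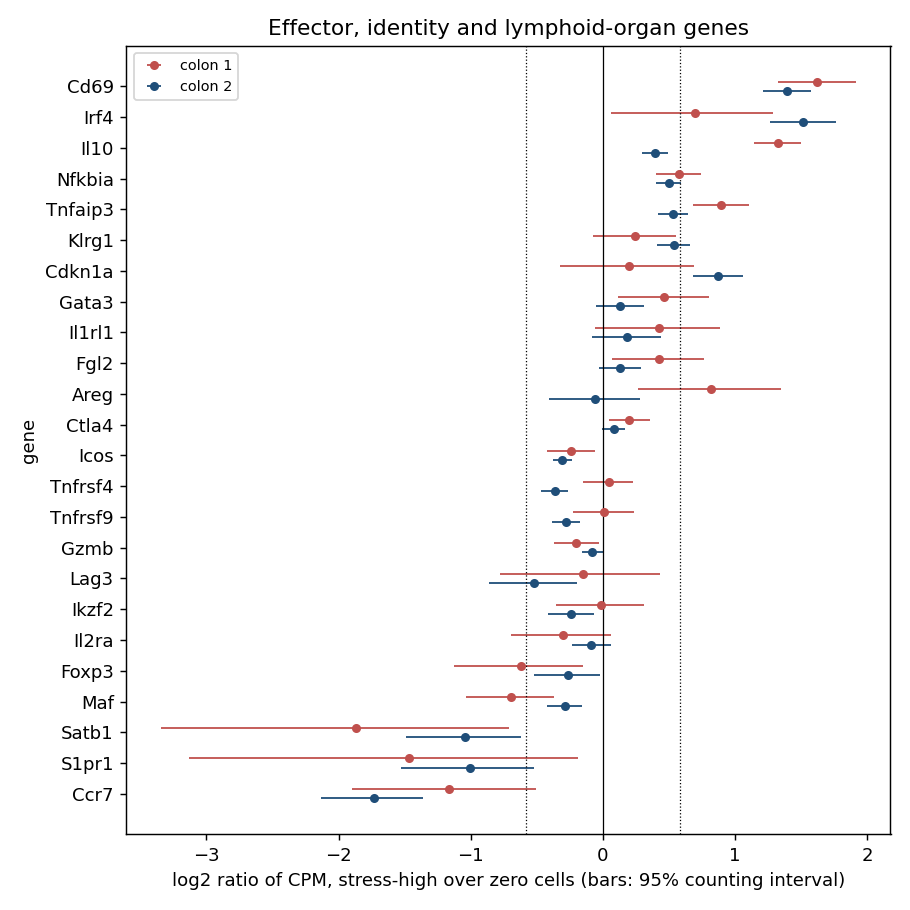
Points give the log2 ratio of CPM in stress-high over zero cells for each gene in colon 1 (red) and colon 2 (blue), with 95% counting intervals as bars and dotted lines at 1.5-fold. Cd69 and Irf4 lie right of the line in both libraries, Il10 in colon 1 alone, most effector and identity genes lie between the lines, and Ccr7, S1pr1 and Satb1 lie left of them.

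Some genes of lymphoid-organ T cells were lower in the members. Of 6 measured genes of resting lymphoid-organ T cells 3 were lower and 0 higher, with medians of -0.42 and -0.39. Among all measured genes 2.78% were lower and 1.43% higher. Ccr7, the chemokine receptor that guides T cells into lymph nodes (chr11:99144196-99155077, minus strand), stood at 147.1 against 329.8 CPM in colon 1 and 100.7 against 334.7 CPM in colon 2, log2 ratios of -1.16 (-1.90 to -0.51) and -1.73 (-2.13 to -1.36). S1pr1, which lets T cells leave tissue into lymph, was at 36.8 against 101.7 CPM in colon 1 and 63.3 against 127.3 CPM in colon 2. In the members of colon 1 it rested on 5 UMIs, with a log2 ratio of -1.47 (-3.13 to -0.19). It fell short of 1.5-fold under 4 of 15 other ways of counting.

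Satb1, a chromatin organiser of naive T cells, was at 44.1 against 161.2 CPM in colon 1 and 84.4 against 173.96 CPM in colon 2. In the members of colon 1 it rested on 6 UMIs, with a log2 ratio of -1.87 (-3.34 to -0.71). Klf2, a factor that drives S1pr1, had log2 ratios of 0.47 and 0.89. Cells with a Ccr7 UMI were stress-high in 6.58% of cases in colon 2 (3.20 to 11.8) and the other cells in 16.1% (14.4 to 18.04). In colon 1 the share was 6.67% (1.85 to 16.2), with an interval that overlapped that of the other cells (9.40 to 15.01). In the spleen library Ccr7 was at 135.8 CPM, S1pr1 at 364.2 CPM and Satb1 at 197.3 CPM.

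Several genes outside these groups were also higher. Lmna, which encodes the nuclear lamins A and C, stood at 1573.9 against 672.03 CPM in colon 1 and 1856 against 726.2 CPM in colon 2 (log2 ratios 1.23 and 1.35), and was at 5.59 CPM in spleen. Rgcc, a regulator of the cell cycle, had 1.39 and 1.71, Emp1, a membrane protein, 1.31 and 1.17, the gene Cpm, a carboxypeptidase, 1.11 and 1.0, and Tagap, a GTPase activator of T cells, 0.96 and 1.13. For Emp1 the ratio in colon 1 was 0.48 without its top cell. Tagap rested on 21 UMIs in the members of colon 1 and was called higher under 12 of 15 other ways of counting. Of lower genes outside the lists, Ky had -1.75 and -1.14, Iigp1, an interferon-induced GTPase, -1.13 and -0.87, Tex2 -1.70 and -0.82 (each of these on 5 to 7 UMIs in the members of colon 1), and Gna13, a G protein subunit, -0.91 and -0.75. Isg15 was the only one of 8 interferon response genes that was lower, and 0 of 9 glycolysis and 0 of 5 cell cycle genes were called.

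Members were also divided by which pair of rule genes was high. A heat-shock arm (3 or more UMIs of Hspa1a plus Hspa1b and at most 1 of Fosb plus Atf3) held 24 members of colon 1 and 98 of colon 2. An AP-1 arm (the reverse) held 26 and 94, both pairs reached 3 UMIs in 16 and 47, and 4 and 28 members fitted none of these. Over all colon cells with 1000 UMIs, 23.2% of the cells with 3 or more UMIs of Fosb plus Atf3 in colon 1 and 18.7% in colon 2 also had 3 or more of the Hsp70 pair, while 7.02% and 9.45% of the other cells did. A cut on the summed UMIs takes in cells high for a single pair, and the arms were cut from the rule genes, so these numbers are a description.

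**Figure D3:**
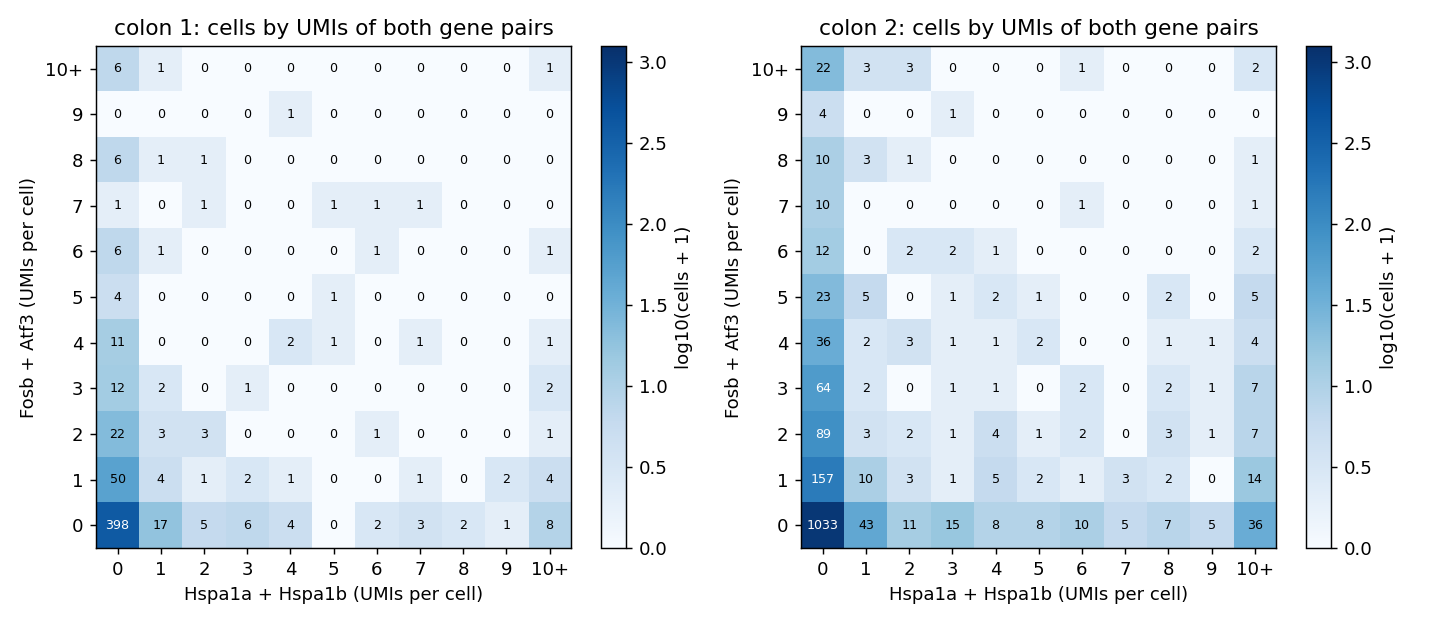
Each square gives the number of colon cells with that many UMIs of Hspa1a plus Hspa1b (horizontal) and of Fosb plus Atf3 (vertical), in colon 1 and colon 2; the shade is log10 of the number of cells plus 1. Most cells lie along the left and bottom edges, and the 16 and 47 cells with 3 or more UMIs of both pairs lie scattered in the middle and to the right.

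Among the genes named by rule, 5 were higher in the heat-shock arm and 7 in the AP-1 arm with intervals that left out 0 in both libraries, and 93 were neither. Over the 1609 genes tested, 22 were higher in the heat-shock arm (1.37%) and 29 in the AP-1 arm (1.8%) by the same rule. These intervals leave out the spread between cells, so 1 cell with many UMIs can move them. Penk, 1 of the 7, had 69 UMIs in the AP-1 arm of colon 1, all of them in 1 cell. Dusp10, 1 of the 5, rested in colon 1 on 8 UMIs in the heat-shock arm against 1 in the AP-1 arm. Dnajb1 stood higher in the heat-shock arm than in the AP-1 arm by log2 2.43 (1.16 to 3.98) in colon 1 and 0.91 (0.34 to 1.5) in colon 2. Dnaja1 was at 928.2 against 448.5 CPM in colon 1 and 977.4 against 511.9 CPM in colon 2, its AP-1 arm being near the zero cells (422.8 and 472.1 CPM). Hsp90aa1 and Hspa8 were also higher in the heat-shock arm, by log2 1.19 and 0.61 and by 0.93 and 0.61. Hsph1 was raised over zero cells in each arm, by 3.58 and 2.45 in the heat-shock arm and 1.98 and 1.89 in the AP-1 arm.

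In the other direction, Egr1 was at 234.02 and 202.2 CPM in the AP-1 arm and 19.8 and 28.3 CPM in the heat-shock arm, the latter on 1 and 6 UMIs. Jund was at 1930.7 and 2456.4 CPM in the AP-1 arm against 1007.2 and 1751.8 CPM in the heat-shock arm. Cd69 differed between the arms by -0.75 and -0.72 (log2 of heat-shock over AP-1 arm), and the heat-shock arm itself stood above zero cells by log2 1.15 and 0.96. Ctla4 was at 3393.3 and 2903.8 CPM against 2646.5 and 1695.1 CPM, and Tnfrsf9 at 1657.7 and 1608.9 CPM against 1066.5 and 1104.9 CPM.

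Jun had log2 ratios over zero cells of 2.06 and 1.82 in the heat-shock arm and 1.10 and 2.04 in the AP-1 arm. Lmna was at 764.9 CPM in the heat-shock arm of colon 2, beside 726.2 CPM in zero cells, and at 2447.8 CPM in the AP-1 arm, while in colon 1 the arms were level at 1264 and 1287.1 CPM. Il10 was above zero cells by log2 1.03 and 0.60 in the AP-1 arm, by 0.70 and -0.06 in the heat-shock arm and by 1.71 and 0.69 in cells high for both. Between the single arms its interval left out 0 only in colon 2, where it was at 2047.7 CPM in the AP-1 arm and 1298.5 CPM in the heat-shock arm. Over the 1609 genes, 36 were higher (2.24%) and 48 lower (2.98%) in the heat-shock arm than in zero cells, 45 higher (2.8%) and 61 lower (3.79%) in the AP-1 arm, and 62 higher (3.85%) and 86 lower (5.34%) in cells high for both. Of the 36 genes higher in all members, 13 were higher in both single arms. These 3 sets of cells share the zero cells they were compared with.

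Each arm also held genes of the other response. In the heat-shock arm 4 of 20 AP-1 genes (Fos, Jun, Klf6 and Csrnp1) and 7 of 16 heat-shock genes were higher and 0 of either list lower, beside 2.31% higher and 4.31% lower of all genes with 50 UMIs. In the AP-1 arm 8 of 20 AP-1 genes were higher, and of the heat-shock genes 4 of 16 were higher (Hsph1, Hsp90aa1, Hspb1 and Stip1, a cochaperone that links Hsp70 and Hsp90) and Hspd1 was lower, beside 2.54% higher and 5.33% lower of all genes. In the AP-1 arm of colon 1 Hsph1 rested on 6 UMIs and Hspb1 on 7. Cells high for both pairs had 9 of 20 AP-1 genes and 6 of 16 heat-shock genes higher, while Hspb1 was lower there. Of the 31 Hspb1 UMIs in the members of colon 1, the heat-shock arm held 23 and the AP-1 arm 7. Almost none were left for cells high for both, too few to read this call as a decrease. In cells high for both pairs, 2 of 13 endoplasmic reticulum stress genes were higher (Hspa5, the luminal Hsp70, and Herpud1, a part of the degradation machinery). Of 12 damage genes there, 1 was higher (Pmaip1, the cell death inducer Noxa) and 2 lower (Bcl2l1 and Bcl2l11), beside 4.58% higher and 6.72% lower of all genes. All members of colon 1 together held 15 UMIs of Herpud1, 6 of Bcl2l1 and 10 of Bcl2l11. Cells high for both pairs are a part of these members, so the calls of these genes rest on few UMIs.

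**Figure D4:**
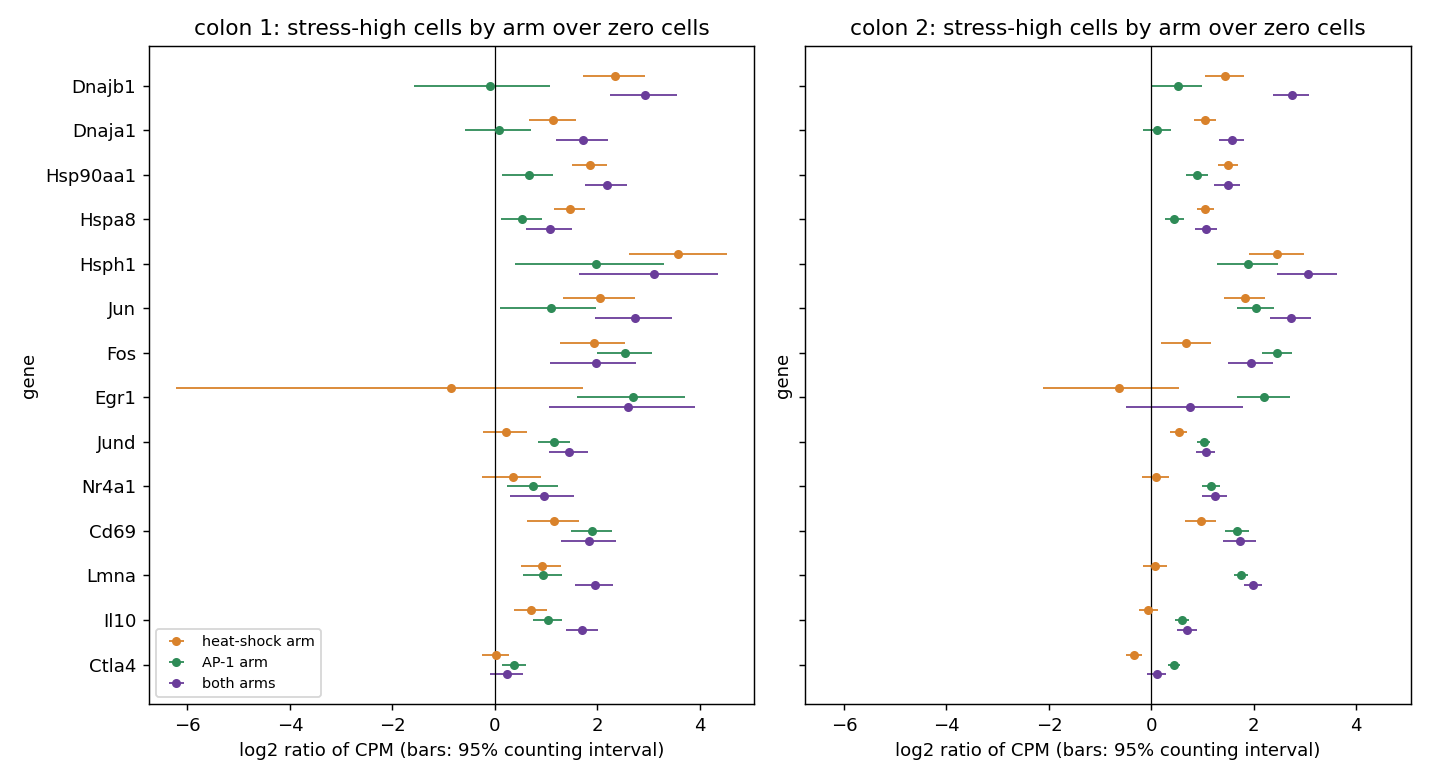
Points give the log2 ratio of CPM over zero cells for the heat-shock arm (orange), the AP-1 arm (green) and cells high for both (purple) in colon 1 and colon 2, with 95% counting intervals as bars. Dnajb1 and Dnaja1 lie near 0 in the AP-1 arm of colon 1, Egr1 lies below 0 in the heat-shock arm with a wide interval, and Cd69 is above 0 in every set.

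Cells below the cut lay between both ends for several genes. Colon cells were divided by 0, 1, 2 to 4, 5 to 9 and 10 or more UMIs of the 4 genes. Hsp90aa1 rose at each step, from 482.3 through 506.5, 863.3 and 945.6 to 2071.2 CPM in colon 1 and from 486.2 through 622.6, 705.3 and 951.7 to 1440.9 CPM in colon 2. Cd69 went from 355.9 through 407.9, 769.6 and 821.6 to 1343.5 CPM in colon 1 and from 271.7 through 502.1, 672.6 and 674.1 to 760.4 CPM in colon 2. Hsp90aa1 and Cd69 were the 2 of the 20 highest genes that rose at each step in both libraries, and Gna13 was 1 of the 15 lowest that fell at each step.

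Il10 split between the libraries along the same steps. In colon 1 Il10 went from 1118.4 CPM through 1144.7, 1646.3 and 1984.2 to 3526.6 CPM, and in colon 2 from 1351.1 through 1512.95, 1807.5 and 1854.6 to 1690.9 CPM. Ccr7 was already lower in cells with 1 UMI, at 46.05 and 171.8 CPM, and had no steady order after that. The last step of colon 1 rests on 35 cells.

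**Figure D5:**
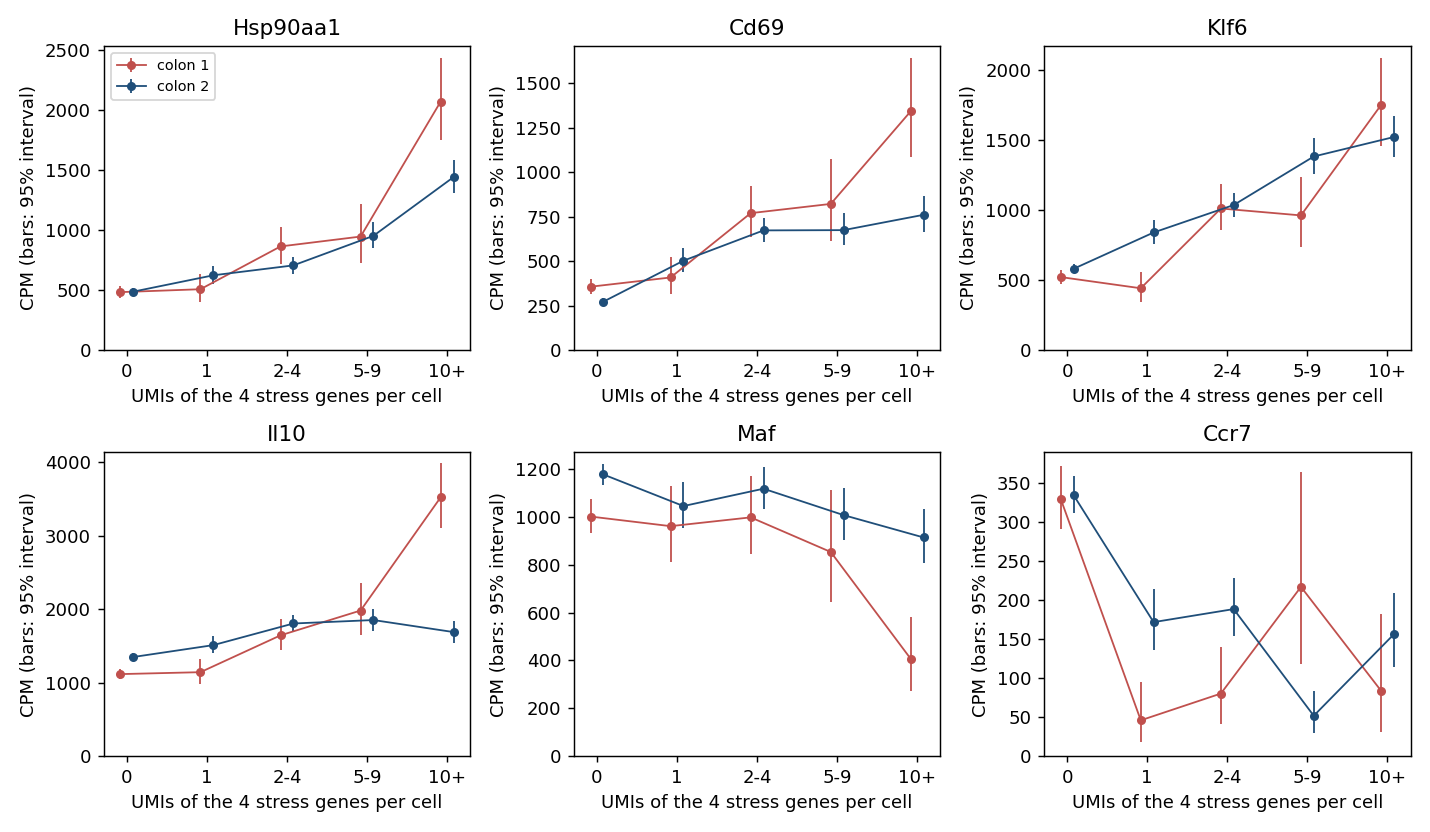
Each panel plots the CPM of 1 gene (vertical) in colon cells with 0, 1, 2 to 4, 5 to 9 or 10 or more UMIs of the 4 stress genes (horizontal), in colon 1 (red) and colon 2 (blue), with 95% counting intervals as bars. Hsp90aa1 and Cd69 rise at each step, Il10 reaches 3526.6 CPM in colon 1 and 1690.9 CPM in colon 2 at the last step, and Ccr7 drops at the first step.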

How the data were processed

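The deposited table holds raw UMI counts per gene and cell for 3008 cells and 23725 genes. TopHat2, SAMtools and the mm10 build are listed, without versions or roles, in the submitters' processing notes. How UMIs were collapsed, cells chosen and doublets treated is not given in the sources used here, and no doublet caller was run. UMIs were summed per library and kind of cell, scaled to 1000000 UMIs (CPM) without the 4 rule genes, and divided, with exact Poisson, conditional binomial and Clopper-Pearson intervals (95%) and a floor of 3 counts for genes at 0. With 1 sample per library no test was made. Cells of a library are not replicates.

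Named genes are the 20 highest and 15 lowest by the smaller log2 ratio of both libraries, 28 fixed genes and up to 4 members per list. Members, the 18 program lists and the naming rule were chosen with earlier results of these data known. The lists are those of AP-1, heat shock, endoplasmic reticulum stress, oxidative stress, damage, suppressive, activated effector, identity, GATA3, NF-kB, cyclic AMP, MAP kinase phosphatase, trafficking, resting, interferon, cell cycle and glycolysis genes, and 1 more that is not reported here. Of trafficking genes 0 of 14 were higher and 2 lower (Ccr7 and S1pr1), and of MAP kinase phosphatases 2 of 5 were higher. Among all measured genes 1.43% were higher and 2.78% lower.

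Python 3.11.15 (numpy 2.4.6, scipy 1.17.1, pandas 2.3.3) and edgeR 4.0.16 in R 4.3.3 (TMM scaling factors only) were used. The calls were tried on simulated sums of counts without spread between cells. That simulation cannot show how the rule behaves where 1 cell holds most UMIs of a gene. Gene symbols are those of the table, gene positions come from GENCODE vM21 (mm10) and promoters from RefSeq. The 20 alternatives covered scaling, thinning, filters, thresholds, weighting and cells kept.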

Additional observations from a re-analysis of the deposited data

Results flagged for a closer look

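For 3 named genes both libraries went opposite ways, with intervals that left out 0 on each side, and the difference was not tested. Penk, which encodes proenkephalin, had a log2 ratio of 1.44 in colon 1 and -0.26 in colon 2, and 69 of its UMIs in the members of colon 1 lay in 1 cell, without which the ratio was 0.28. Stmn1, a microtubule regulator of dividing cells, had -2.96 in colon 1, on 2 UMIs in the members, and 0.98 in colon 2, where 23 of 88 UMIs lay in 1 cell. Hmgb2, a chromatin protein of dividing cells, had -1.06 in colon 1 and 0.28 in colon 2.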

How the results depend on the processing

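Of 20 alternatives, 15 kept the count of higher genes within 1.5 times of 36 and 12 kept that of lower genes within 1.5 times of 25. The lower genes numbered 16 under median of ratios scaling, 44 after thinning to 1000 UMIs and 12 with members taken at 3 or more UMIs. These are 0.999%, 2.73% and 0.75% of the genes tested. With 50 CPM as the filter 64 genes were higher (2.13%) and 84 lower (2.8%), without a filter 3.37% and 4.74%, and at 2-fold 14 (0.87%) and 4 (0.249%). With 1 library alone (leave-one-out) 4.16% to 15.3% of the genes tested were higher and 3.5% to 14.9% lower, the smaller shares without colon 1 and the larger without colon 2. The share of stress-high cells was 18.7% and 22.99% at 3 or more UMIs of the 4 genes and 8.36% and 9.86% at 8 or more. The cause of these moves was not tested, beyond the filters and thresholds changing which genes or cells count. Of 23 named higher genes 17 were called under all 15 alternatives that keep both libraries, the filter and the fold, and of 15 named lower genes 3 (Ccr7, Ky and Satb1). Leaving out, for each gene, the member cell with most UMIs, chosen after seeing the data, left 25 of 36 higher genes called. Emp1, Hspb1, Irf4, Dusp1 and Dusp14 were among those lost. No paired analysis was possible because the results come from no test: each ratio is taken within a library, the labels name no animal, and the title and sample type of colon 2 disagree on its replicate number. Depth limits single genes in colon 1, where the members hold 136833 UMIs against 619220 in colon 2.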

Other observations

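Among called genes that no list held, 4 are named after their values were seen. Socs1, which shuts off cytokine receptors, stood at 279.5 against 131.4 CPM in colon 1 and 233.8 against 130.8 CPM in colon 2. Pim1, a kinase induced by STAT factors, was at 1147.4 against 725.4 CPM in colon 1 and 1776.4 against 1151.2 CPM in colon 2. Stat3, a transcription factor that cytokine receptors switch on, was lower in members, at 272.1 against 574.1 CPM in colon 1 and 401.1 against 625.4 CPM in colon 2, and Stat5b at 95.6 against 163.7 CPM in colon 1 and 123.4 against 210.1 CPM in colon 2. In the members of colon 1 Stat5b rested on 13 UMIs, and the interval of its log2 ratio of -0.78 there included 0 (-1.72 to 0.05). Stat5b fell short of 1.5-fold with members taken at 3 or more or at 8 or more UMIs. Of the same gene family, Stat4, Stat5a and Stat6 were not called, with log2 ratios of -0.36 and -0.32 for Stat4, -0.38 and -0.45 for Stat5a, and 0.31 and 0.29 for Stat6.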
